A study of Mus musculus with 10 samples.

Results

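The last culture of the study, called C3, was compared with the primary cells called A, both CD45- and both taken from mouse left atrial appendage, the small sac on the heart's left atrium. The comparison rests on 4 of the 10 RNA sequencing libraries, chosen by their labels as the 2 libraries of C3-type cells and the 2 libraries of A-type cells. All cells came from adult C57BL/6 mice aged 8 to 12 weeks, and the labels name no genetic change and no drug. Pieces of the appendage were digested, placed in wells and cultured in a medium with fetal bovine serum. A cells were primary cells obtained after strong digestion, with 0.25% trypsin and 0.1% collagenase D, and were c-kit+ and CD45-. c-kit is the receptor of stem cell factor, found on various progenitor cells, and CD45 is the surface protein of white blood cells. C3 was the 10th passage of another primary type, B, which came from weak digestion with 0.05% trypsin and the same collagenase and was positive for both proteins. At passage 10 the cells were c-kit- and CD45-. C3 therefore does not descend from A, and passage, starting cell type, digestion and c-kit status differ together, so that their parts in a difference cannot be told apart. C2, the 8th passage of B-type cells, also c-kit- and CD45-, served as the nearest culture. Separate animals or cultures are not named in the labels, so p-values reflect the spread among the libraries at hand and that spread may be technical.

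The wall of the atrial appendage holds fibroblasts, which lay down collagen and elastic fibres, the mural cells of vessels (pericytes and smooth muscle), endothelial cells, macrophages and muscle cells. It is covered by the epicardium, a mesothelium whose cells carry keratins, mesothelin and uroplakins and which gives rise to fibroblasts and mural cells in the embryo. HOX genes encode transcription factors that mark position along the body axis, and cultured stromal cells often keep the pattern of their site of origin. Cells that sense viral nucleic acid or interferon switch on a shared set of antiviral genes through STAT and IRF transcription factors. Cells that pass through the cycle use E2F factors to start DNA replication and a later wave of genes to carry out mitosis, and the products of Cdkn2a and Cdkn2b hold the cycle back.

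Values were deposited as log2 differences from each gene's median over the 10 libraries and are given below as relative log2 values. A level in normalized reads, with a floor of 1, is known only for genes with at least 2 libraries at their lowest value. The C3 libraries were 7.97 times as deep as the A libraries, judged by what 1 read is worth. A count of 0 allows up to 5.75 normalized reads in A, while the same limit in C3 lies under the floor. A fold given as at least some value sets the lower library of the higher type against that limit in A or that floor in C3, so that it holds for each library. The A libraries stood apart from each other by 1.06 (root mean square of the log2 difference over 14253 genes) and the C3 libraries by 0.43. C3 lay 1.51 from C2, 1.78 from C1 (passage 6), 1.99 from A and 2.43 from B. Kit, which encodes c-kit, lay at 3.36 and 72.3 normalized reads in the A libraries and at the floor in both C3 libraries. Its difference of -3.96 ± 1.32 (SE, adjusted p = 0.04) was not past the threshold without A replicate 2, at -1.75, or without either C3 library, at -3.96 and -3.96, and was -6.18 without A replicate 1. Ptprc, which encodes CD45, lay at 6.72 and 82.1 normalized reads in A and at the floor in both C3 libraries, so that A replicate 2 held its transcript in spite of the CD45- label. Its difference of -4.55 ± 0.98 was -2.75 without A replicate 2. The 4 measured genes of the Y chromosome that passed the filter were expressed in both A libraries and at the floor in both C3 libraries. Ddx3y, for example, lay at 618 and 353 normalized reads in A, 57.2 and 86.2 in C2 and 1 and 1 in C3. Xist, the RNA that coats the inactive X chromosome, lay at 1.09 and 4.12 in A and -0.17 and 0.17 in C3, a fall of 2.61. The call was lost without A replicate 2, at -1.09, and without either C3 library, at -2.44 and -2.78, and the difference was -4.12 without A replicate 1. The libraries are not stated to keep strand, so reads of Xist and its antisense partner cannot be told apart, and the labels give no sex.

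Of 14253 genes tested with limma across all 10 libraries, 4892 (34.3%) differed between C3 and A at a Benjamini-Hochberg adjusted p under 0.05 and at least 1 on the log2 scale. Higher in C3 were 2051 genes (14.4%) and lower 2841 (19.9%). Counts of list members given below are to be read beside these shares. The median difference over all tested genes was -0.02. With quantile normalization of the libraries, 2387 genes were higher and 2094 lower, so that the share of higher genes among those called moved from 41.9% to 53.3%. The large differences lay mostly on the lower side, where 1056 genes fell by at least 3 on the log2 scale against 338 that rose as much. For all 4892 called genes, both C3 libraries lay on the same side of both A libraries. Over all 14253 tested genes, called or not, both C3 libraries lay above both A libraries for 5261 and below for 5367. Calls rest on the same libraries, so this separation adds no support to them. Of the genes called higher, 1008 were also higher in C3 than in C2. Of those called lower, 1604 were also lower, where C3 and C2 differed at 3971 genes in all (27.9%). These 2 comparisons share the C3 libraries.

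**Figure D1:**
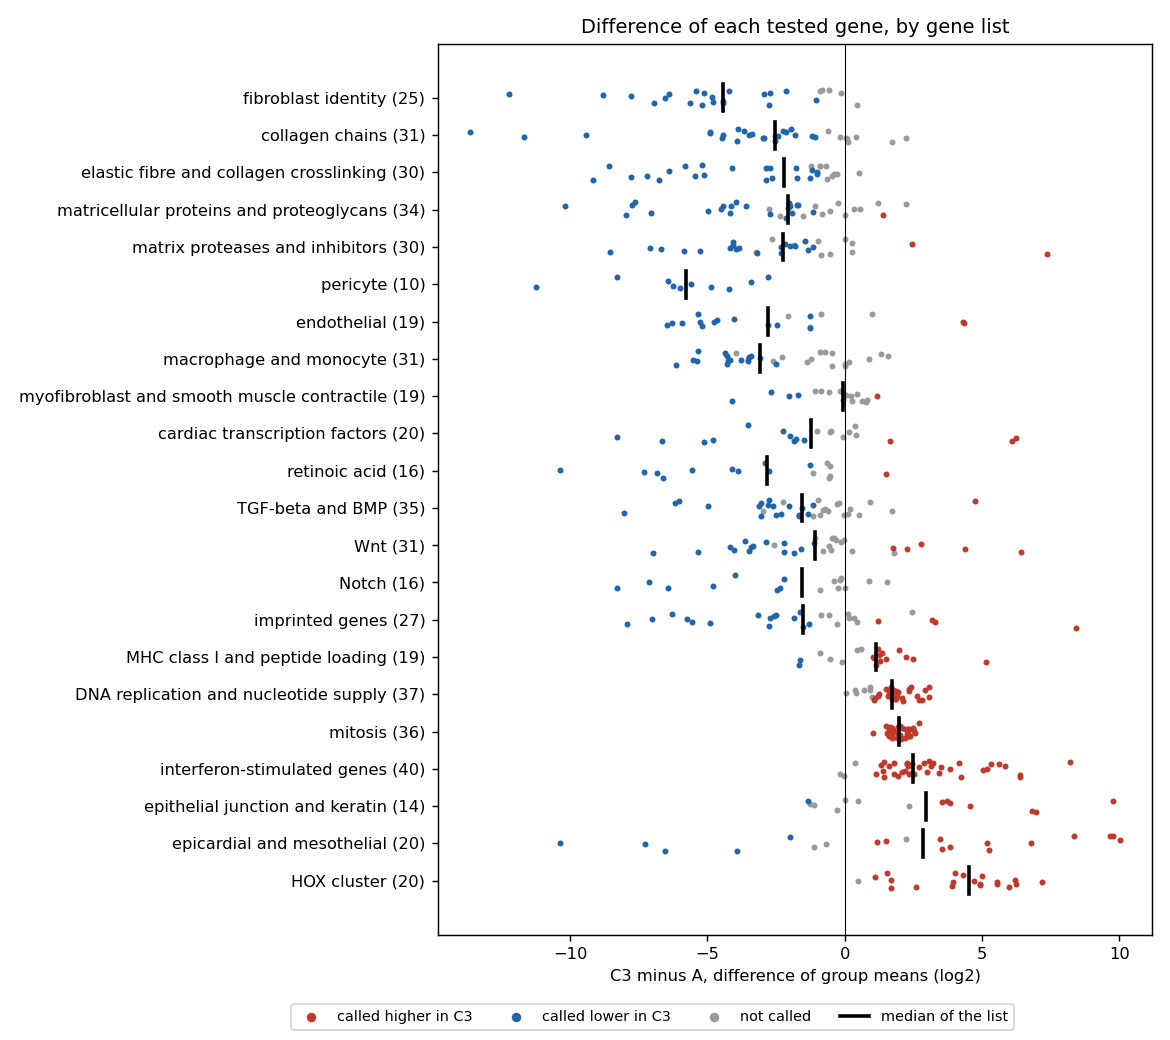
Difference between C3 and A (x axis, log2, difference of group means) of every tested gene in 22 gene lists, with the number tested in brackets. Points are genes, coloured by call, and the black line is the median of the list, which runs from -5.80 for pericyte genes and -4.45 for fibroblast genes to 4.51 for HOX genes.

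Of the 12 named genes with the largest falls, 5 belong to the lists of matrix, fibroblast and pericyte genes. Col15a1, a collagen chain of the basement membrane zone, lay at 5.69 and 5.39 in the A libraries and -7.54 and -8.64 in C3, a difference of -13.63 ± 0.34 (SE, adjusted p = 1.3e-06). Ace, the enzyme that forms angiotensin II, differed by -12.59 ± 0.36. Frzb, a secreted Wnt antagonist, lay at 7837 and 3785 normalized reads in A and at the floor in both C3 libraries, at least 3785-fold lower. Thy1, a surface protein of fibroblasts, lay at 6322 and 5772 normalized reads in A and 1 and 1.59 in C3. Both A libraries lay above both C3 libraries for those 4 genes, as for every gene called lower. The next were Col14a1 (-11.68), the pericyte gene Ndufa4l2 (-11.24), the retinoic acid enzyme Aldh1a2 (-10.36), the matrix protein gene Postn (-10.19), the sphingosine phosphate receptor gene S1pr3 (-10.14), the chemokine gene Cxcl14 (-10.11), the transporter gene Abca8a (-9.87) and Fndc1 (-9.77).

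Of the 12 named genes with the largest rises, 4 belong to the lists of mesothelial and epithelial genes. Msln, which encodes mesothelin, lay at -5.33 and -4.56 in A and 5.03 and 5.12 in C3, a difference of 10.02 ± 0.44 (SE, adjusted p = 9.9e-06). Tspan8, a tetraspanin of epithelial cells, was at the floor in both A libraries and at 835 and 923 normalized reads in C3, at least 145-fold higher. Krt18 (keratin 18) rose by 9.76, and the uroplakins Upk3b and Upk1b rose by 9.65 and 8.33. The others were Vat1l (8.46), Dlk1, an imprinted surface protein (8.43), the antiviral gene Oas3 (8.19), Klra4, a receptor gene of the Ly49 family, which holds closely similar copies (8.05), Pkhd1l1 (7.94), Lmo7 (7.89) and Cgn, which encodes cingulin of tight junctions (7.86). Against C2, 11 of the 12 were higher in C3 as well, by 4.38 for Msln, 5.57 for Krt18, 4.13 for Upk3b and 7.38 for Vat1l, while Dlk1 was lower in C3 than in C2, at -4.12.

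Genes of the extracellular matrix were mostly lower in C3. Of 31 collagen chains tested, 0 rose and 23 fell, with a median of -2.54. Fibril-forming chains were among those that fell. Col3a1 lay at 1.68 and 0.93 in A and -2.54 and -3.74 in C3 (-4.45 ± 0.43), Col1a1 lay at 1.05 and 1.38 and -0.67 and -1.17 (-2.13 ± 0.24 (SE, adjusted p = 0.00047)), and Col1a2 fell by 2.96. Beyond Col15a1 and Col14a1, the microfibrillar Col6a3 fell (-9.42), and Col18a1 and Col2a1 fell (-4.91 and -4.91). Without A replicate 2, Col2a1 differed by -3.19. The highest differences were 2.25 for Col4a4 and 1.70 for Col4a3, basement membrane chains that did not pass the test against A but were higher in C3 than in C2, by 4.58 and 3.73. Both were called higher than A without A replicate 1, at 3.15 and 2.83, so that 2 collagen chains rose, as did 2 with quantile normalization.

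Of 30 genes of elastic fibres and collagen crosslinking, 0 rose and 21 fell (median -2.21). Eln, which encodes elastin, lay at 1442 and 229.7 normalized reads in A and at the floor in both C3 libraries, at least 229.7-fold lower. Mfap4, a microfibril protein, lay at 859 and 174 in A and at the floor in C3. For both genes A replicate 1 was several times higher than A replicate 2, and C3 lay under both. Further falls were those of Mfap5 (-7.76), Efemp1 (-7.20), Fbln1 (-6.75), Ltbp2 (-6.39), the crosslinking enzyme gene Loxl1 (-5.83) and the fibrillin gene Fbn1 (-5.46). Loxl4, a related enzyme, differed by 0.53 and was not called.

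Among 34 matricellular proteins and proteoglycans, 1 rose and 21 fell (median -2.05). Postn (periostin) lay at 4.36 and 3.58 in A and -5.73 and -6.71 in C3 (-10.19 ± 0.38 (SE, adjusted p = 5e-06)). Fn1 (fibronectin) lay at 1.32 and 1.44 and -2.50 and -3.03 (-4.14 ± 0.21). Sparcl1, Prelp, Tgfbi and Wisp2 fell (-7.95, -7.74, -7.64 and -7.06), and the small proteoglycan gene Dcn (decorin) fell (-2.71). The gene that rose was Wisp1, by 1.39, and without A replicate 1 there were 2 that rose. Of 30 matrix proteases and inhibitors, 2 rose and 19 fell (median -2.24). The protease inhibitor gene Serpine2 fell (-8.56), as did the stromelysin gene Mmp3 (-7.11), the cathepsin gene Ctsk (-6.69) and the gelatinase gene Mmp2 (-4.19). The collagenase gene Mmp13 lay at -8.18 and -4.19 in A and 0.70 and 1.68 in C3 and rose by 7.38 (SE 1.14, adjusted p = 0.0018). Plaur, the urokinase receptor gene, rose by 2.43.

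Of 25 fibroblast identity genes, 0 rose and 20 fell, with a median of -4.45. Pdgfra, the receptor for platelet-derived growth factor that marks cardiac fibroblasts, lay at 2.46 and 2.12 in A and -2.79 and -3.47 in C3 (-5.42 ± 0.23 (SE, adjusted p = 9.3e-06)). Tcf21, a transcription factor of epicardial derivatives and fibroblasts, fell (-6.54), and Dpt (dermatopontin), Islr and Pi16 fell (-8.81, -6.95 and -6.41). Vim, the intermediate filament of mesenchymal cells, and the collagen receptor Ddr2 were not called, at -0.13 and -0.91. Of 26 transcription factors tied to mesenchyme, 2 rose and 11 fell. Foxc2, Six2, Sox9 and Twist2 fell (-6.66, -6.25, -5.51 and -4.72), as did Snai1 (-2.81). Twist1, Snai2, Zeb1 and Zeb2 did not pass the test (-0.70, -1.29, -0.93 and -0.84). Foxf2 and Foxf1 rose by 2.55 and 1.51, calls that were not kept when the fit used the A and C3 libraries alone. Without A replicate 1 they differed by 1.54 and 0.92, the latter no longer called. In bulk RNA, fewer cells of a type and less RNA per cell cannot be told apart.

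All 10 tested pericyte genes fell (median -5.80). Ndufa4l2 lay at 2421 and 2402 normalized reads in A and at the floor in both C3 libraries, at least 2402-fold lower. Cspg4 (NG2), a defining surface proteoglycan of pericytes, lay at 195 and 503 in A and at the floor in C3, at least 195-fold lower. Abcc9, a channel subunit of mural cells, lay at 60.5 and 66.7 in A and at the floor in C3. Pdgfrb, Notch3, Steap4 and Anpep fell (-4.20, -6.45, -6.25 and -5.61). Another defining gene, Rgs5, did not pass the filter on low values. Of 19 genes of smooth muscle and myofibroblasts, 1 rose and 4 fell, with a median of -0.07. The share that fell was near that over all tested genes (19.9%). Acta2, smooth muscle actin, differed by 0.04 ± 0.29 and was not called (adjusted p = 0.91), and Myh11, smooth muscle myosin, rose by 1.19. Des (desmin), Synpo2, Tagln and Lmod1 fell (-4.09, -2.68, -2.03 and -1.70).

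Of 19 endothelial genes, 13 fell and 2 rose (median -2.80). The median of C2 minus A was -2.43, and against C2 2 of the 19 were higher in C3 and 3 lower. Cdh5 (VE-cadherin) lay at 26.8 and 49.8 normalized reads in A and at the floor in both C3 libraries, at least 26.8-fold lower, and Pecam1 (CD31) lay at 16.8 and 38.3 and at the floor, at least 16.8-fold lower. Both defining markers were thus measured in both A libraries and in neither C3 library. A replicate 2 exceeded A replicate 1 at 13 of the 19, and the median was -3.85 without A replicate 1 and -1.75 without A replicate 2. With the A and C3 libraries alone 8 fell. Plvap, Sox7, Eng and Vwf fell (-6.46, -6.28, -5.92 and -5.34). The vascular growth factor receptor gene Kdr was higher in C3, with 1 and 3.83 normalized reads in A and 30.1 and 49 in C3, at least 5.23-fold, and Podxl, a surface sialomucin that epithelia and mesothelia also carry, rose by 4.36.

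Of 31 macrophage and monocyte genes, 15 fell and 0 rose (median -3.09), and A replicate 2 exceeded A replicate 1 at 29 of the 31. Summed over the 11 members of known level, they came to 43.7 and 596 normalized reads in the A libraries and 17.6 and 17.7 in C3. C1qb, a subunit of complement C1q made by tissue macrophages, lay at 2.63 and 6.53 in A and -0.62 and -2.51 in C3 (-6.15 ± 1.39 (SE, adjusted p = 0.0092)). Emr1, which encodes the macrophage surface protein F4/80, lay at 0.83 and 6.04 in A and -0.46 and -1.27 in C3 (-4.30 ± 1.42). Msr1, a scavenger receptor gene, lay at 18.5 and 95.5 normalized reads in A and at the floor in C3. Csf1r, the receptor that macrophages need to survive, lay at -1.42 and 2.91 in A and -0.67 and -0.60 in C3 and was not called (-1.38 ± 1.19). A replicate 2 was high for these genes, while A replicate 1 stood above both C3 libraries for C1qb, Emr1 and Msr1 but below them for Csf1r. Emr1 differed by -6.91 without A replicate 1 and -1.69 without A replicate 2. Without A replicate 1 the list gave 24 falls, and without A replicate 2 it gave 13 falls and 6 rises. Without C3 replicate 1 or 2 it gave 5 or 4 falls, and 2 with the fit on the A and C3 libraries alone. Without A replicate 1 or 2, Csf1r differed by -3.55 or 0.79. Over the 31 genes the median of C2 minus A was -2.46, and against C2 1 was higher in C3 and 1 lower. Of 24 genes shared by white blood cells, 7 fell and 0 rose, while against C2 0 were higher in C3 and 0 lower. Of these 24, 22 fell without A replicate 1, 4 or 3 without C3 replicate 1 or 2, and 0 with the A and C3 libraries alone. Whether leukocytes in A replicate 2 bear on other genes called against A was not tested.

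**Figure D2:**
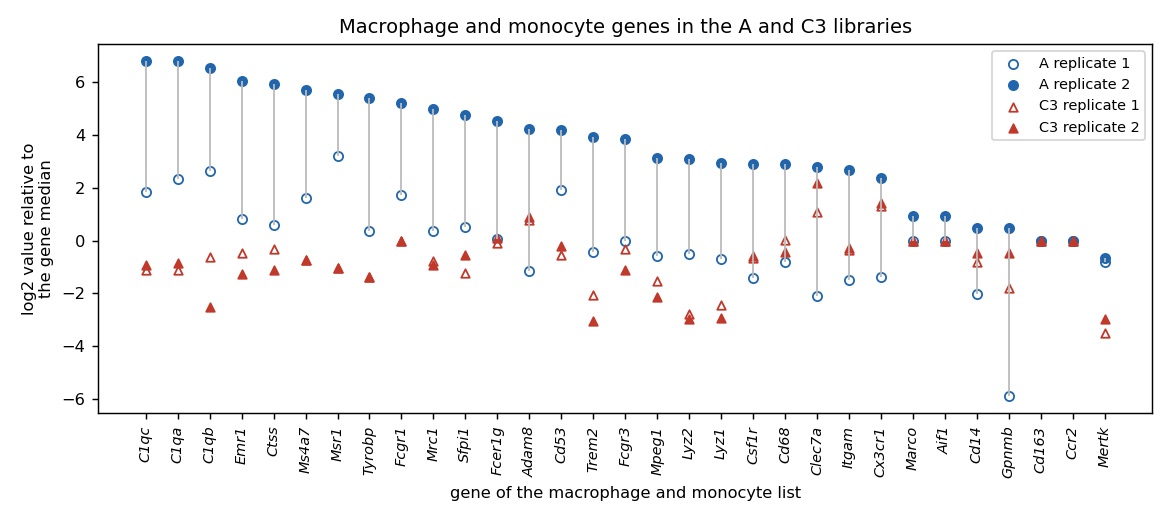
Relative log2 value (y axis) of the 31 tested macrophage and monocyte genes (x axis) in the 2 A libraries (circles) and the 2 C3 libraries (triangles), ordered by A replicate 2. The grey line joins the A libraries, and A replicate 2 is the higher of them for 29 of the 31 genes.

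Of 20 tested epicardial and mesothelial genes, 12 rose and 5 fell (median 2.85). Upk3b, a defining mesothelial gene, lay at -5.34 and -5.38 in A and 4.21 and 4.37 in C3 (9.65 ± 0.20 (SE, adjusted p = 6.3e-07)). Upk1b lay at -4.12 and -6.00 and 3.16 and 3.37 (8.33 ± 0.54). Gpm6a, Bnc1 and Lrrn4, further genes of mesothelial cells, rose by 6.80, 5.25 and 5.20. Wt1, the transcription factor that marks the epicardium, lay at 0.68 and -2.89 in A and 1.42 and 0.82 in C3. Its A libraries were far apart and it was not called (2.23 ± 1.03), though it differed by 4.01 without A replicate 1. The 5 that fell included genes on the path from epicardium to fibroblast or of retinoic acid supply, namely Aldh1a2, at 8.90 and 6.66 in A and -2.39 and -2.77 in C3 (-10.36 ± 1.05 (SE, adjusted p = 0.0003)), Igfbp5 (-7.28), Tcf21 (-6.54) and Tbx18, at 1.83 and 2.16 in A and 0.02 and -0.02 in C3, besides the gene of complement component 3 (-3.92). The list's 12 rises over 20 genes compare with 14.4% over all tested genes. Against C2, 6 of the 20 were higher in C3 and 9 lower.

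Of 27 listed genes of epithelial junctions and keratins, 3 were 0 in every library, 10 did not pass the filter and 14 were tested. Of the 14 tested, 7 rose and 1 fell (median 2.95). The median was 1.87 without A replicate 1, with 2 falls. The 4 members of known level summed to 4 and 8.75 normalized reads in A and 125 and 153 in C3. These 4 thus entered the test through other types, and the count is a description. Krt7, Krt8, Krt18 and Krt19 are also in the mesothelial list, so the counts of these lists overlap. Cdh1 (E-cadherin), a defining epithelial gene, lay at -4.00 and -3.06 in A and 1.29 and 0.79 in C3 (4.56 ± 1.07 (SE, adjusted p = 0.011)). Epcam, the other defining gene, did not pass the filter on low values. Krt14 was at the floor in both A libraries, at 2.04 and 2.59 normalized reads in C2 and at 112 and 139 in C3, at least 19.5-fold higher than in A. Krt18 lay at -3.93 and -2.75 in A and 6.41 and 6.43 in C3, and its partner Krt8 was at the floor in A and at 11.1 and 12.4 normalized reads in C3. Krt8 was thus at least 1.92-fold higher. Krt19 lay at 0.07 and 3.05 in A and 5.26 and 5.54 in C3, a rise of 3.84 that was 2.35 without A replicate 1 and 5.33 without A replicate 2 and was not called with the A and C3 libraries alone. The desmosome genes Pkp2 and Dsp rose by 6.81 and 3.71, and Cdh3 (P-cadherin) by 3.48. The one that fell was the transcription factor gene Ovol1 (-1.32).

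Of the 39 HOX genes in the table, 11 were 0 in every library, 8 did not pass the filter and 20 were tested, of which 19 rose and 0 fell (median 4.51). For 14 of the 20, A lay within its limit of 3 reads, so these genes entered the test through the cultures, and the count is a description. The level of 4 of the 20 is not known. In the Hoxa cluster 8 of 8 tested genes were called, in Hoxb 7 of 7, in Hoxd 4 of 4 and in Hoxc 0 of 1. Hoxa7 was at the floor in both A libraries, at 145 and 114 normalized reads in C2 and 149.9 and 139 in C3, at least 24.1-fold higher than in A. Hoxb7 lay at 1 and 1.92 in A and 90.2 and 122 in C3, at least 15.7-fold higher. Hoxd3 lay at 1 and 3.83 in A and 117 and 130.1 in C3, at least 20.4-fold higher. Both C3 libraries lay above both A libraries for these 3 genes, as for every gene called higher. Hoxa4, Hoxa5 and Hoxb6 rose by 5.56, 5.54 and 5.00, at least 8.22-fold, 15.5-fold and 13.7-fold. Hoxb3 rose by 1.11 and was not called without A replicate 1, at 0.74. Hoxc6 differed by 0.50 and was not called. Hoxa10 was the only HOX gene called higher in C3 than in C2, with 4.08 and 2.07 normalized reads in C2 and 83.4 and 64 in C3, and none was called lower (0 of 20).

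**Figure D3:**
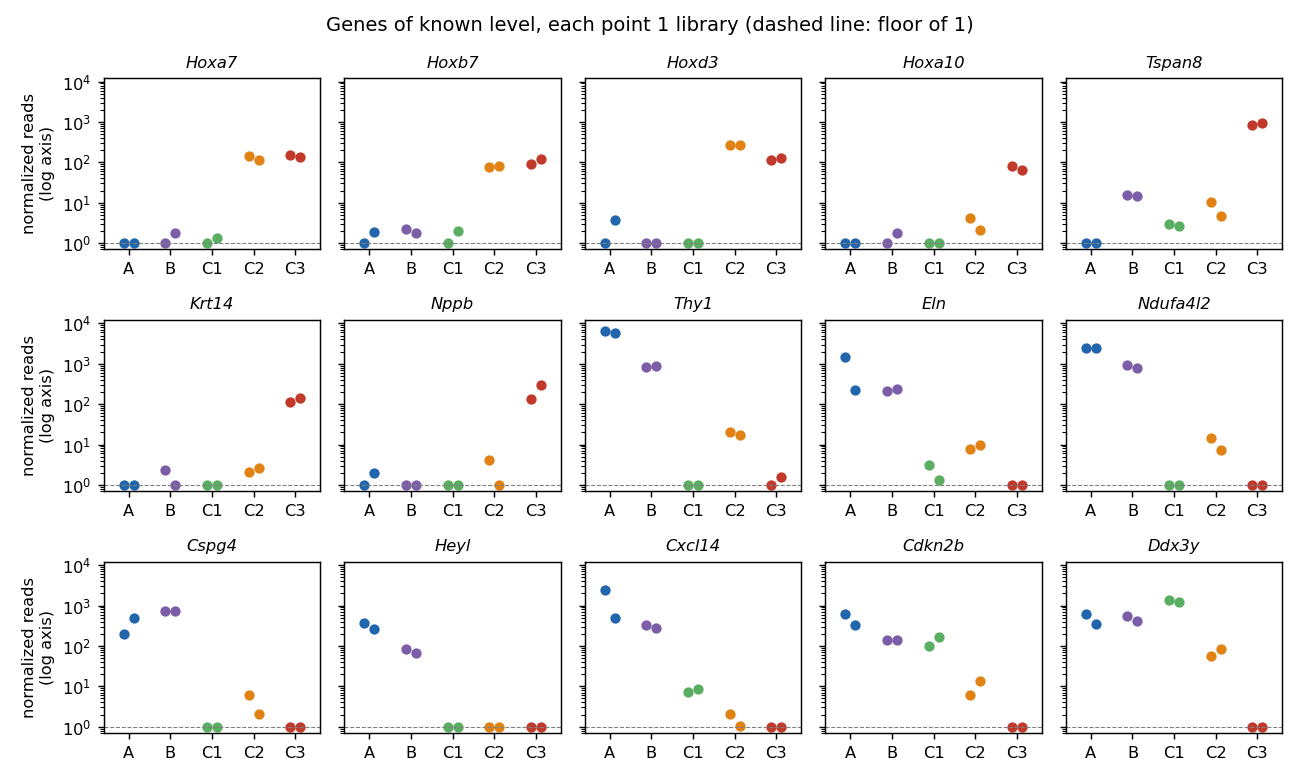
Normalized reads (y axis, log scale, floor at 1) of 15 genes of known level in all 10 libraries, 1 point per library, by cell type (x axis). Hoxa7, Hoxb7 and Hoxd3 were expressed in C2 and C3, Tspan8, Krt14 and Nppb were far higher in C3 than in any other type, and Eln, Ndufa4l2, Cspg4, Heyl, Cxcl14, Cdkn2b and Ddx3y were at the floor in both C3 libraries.

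Of 20 tested transcription factors of the heart, 3 rose and 10 fell (median -1.24), where 14.4% of all tested genes rose and 19.9% fell. Tbx5, a factor of the atria and left ventricle, lay at 25.2 and 48.4 normalized reads in A and at the floor in both C3 libraries, at least 25.2-fold lower. Heyl, a target of Notch, lay at 372 and 265 and at the floor, at least 265-fold lower. Mef2c, Hey1 and Tbx2 fell (-6.67, -4.81 and -3.52), as did Hand2, Tbx20, Gata4 and Meis1 (-2.24, -1.85, -1.78 and -1.49). Gata6 did not pass the test (0.16). Smyd1, a muscle methyltransferase gene, and Irx5 rose by 6.22 and 1.64. Of 24 listed cardiomyocyte genes, 4 were 0 in every library, 9 did not pass the filter and 11 were tested. Of these 11, 3 rose and 4 fell (median -0.23). The rises are given next, while values of the 4 that fell are not reported here. Nppb, which encodes brain natriuretic peptide, lay at 1 and 1.92 normalized reads in A and 134 and 296 in C3, at least 23.4-fold higher. Myl7, the atrial myosin light chain, was at the floor in both A libraries and at 50.4 and 41.4 in C3, at least 7.2-fold higher. Nppb and Myl7 lay within the limit of A, so both entered the test through other types. Tnnt2, cardiac troponin T, rose by 4.55 (2.66 without A replicate 1 and 6.43 without A replicate 2). Myh6 and Myh7, the heavy chains of cardiac myosin, were 0 in every library.

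All 36 mitosis genes tested rose, with a median of 1.97 and a range of the rises from 1.03 for Ccnb2 to 2.69 for Kif11. Of these 36, 31 were also higher in C3 than in C2, and without A replicate 2 the count was 35, as Ccnb2 then differed by 0.97. Kif11, the motor that separates spindle poles, lay at 0.00 and 0.00 in A and 2.73 and 2.65 in C3 (2.69 ± 0.19 (SE, adjusted p = 6.4e-05)). Cdk1, the kinase that starts mitosis, lay at 0.12 and -0.20 and 2.28 and 2.28 (2.32 ± 0.24). Mki67, the proliferation marker Ki-67, lay at 0.21 and -0.31 and 1.81 and 1.50 (1.71 ± 0.27). Both C3 libraries stood above both A libraries for the 3 genes, as for every gene called higher. Bub1, Cenpe, Aurka and Kif23 rose by 2.55, 2.52, 2.50 and 2.38. Of 37 genes of DNA replication and nucleotide supply, 30 rose and 0 fell (median 1.70), and 26 were higher than in C2. Ccne2, Rrm2, Gins1 and Mcm10 rose by 3.06, 3.06, 2.91 and 2.83. Orc1, a subunit of the origin recognition complex, lay at 0.09 and 0.44 in A and 3.09 and 2.87 in C3 (2.71 ± 0.31), and the helicase subunit gene Mcm5 rose by 2.11. E2f1 (0.06), Ccne1 (0.37), Rfc2 (0.40), Ung (0.68), Tk1 (0.92), Tyms (0.93) and Gins3 (0.98) were not called.

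The promoters of 4 of these genes are shown because members of both lists moved together and are known to share short sequences. They are the 150 bases before the start site, from RefSeq on build GRCm38.p6, in the direction of the gene. Capitals mark TTTGAA, the core of the cell cycle homology region, on either strand in the mitosis genes Kif11 (chr19:37376232-37376381, + strand) and Cdk1 (chr10:69352913-69353062, - strand). In the replication genes Orc1 (chr4:108579304-108579453, + strand) and Mcm5 (chr8:75109359-75109508, + strand) they mark an E2F site, searched as TTTCCCGC, TTTGGCGC, TTTGCCGC or TTTCGCGC on either strand.
Kif11: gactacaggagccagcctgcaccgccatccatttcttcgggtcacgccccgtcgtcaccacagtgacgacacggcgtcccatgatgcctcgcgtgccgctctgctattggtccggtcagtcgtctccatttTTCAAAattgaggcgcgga
Cdk1: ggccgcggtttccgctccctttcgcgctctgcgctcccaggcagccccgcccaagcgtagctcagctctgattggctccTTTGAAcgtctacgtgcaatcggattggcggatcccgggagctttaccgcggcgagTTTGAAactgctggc
Orc1: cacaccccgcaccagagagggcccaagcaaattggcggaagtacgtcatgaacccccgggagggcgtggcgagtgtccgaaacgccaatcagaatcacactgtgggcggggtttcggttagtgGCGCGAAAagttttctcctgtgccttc
Mcm5: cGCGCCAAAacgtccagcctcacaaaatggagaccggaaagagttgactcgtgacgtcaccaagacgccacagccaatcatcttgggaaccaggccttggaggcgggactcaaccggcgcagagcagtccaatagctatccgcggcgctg
In a window of 300 bases, from 250 before the start to 50 after it, TTTGAA was found for 23 of the 30 mitosis genes with a promoter in the table (76.7%), against 14.4% of the tested genes with a promoter and 17.9% of all 32851 promoters. An E2F site was found for 13 of 30 replication genes (43.3%), against 4.63% and 2.26%. Neither kind of motif contains the other. A match is a description of the letters and does not show that a factor binds there.

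The list of CDK inhibitors and p53 targets also held genes of other roles in the cycle, among them D-type cyclins, Cdk4, Cdk6 and Mdm2. Of its 33 genes, 5 rose and 6 fell (median -0.15). These shares were near those over all tested genes (14.4% and 19.9%). Cdkn2b, which encodes p15, lay at 627 and 337 normalized reads in A, 6.12 and 13.5 in C2 and at the floor in both C3 libraries, at least 337-fold lower than in A. Its neighbour Cdkn2a, which encodes p16 and p19Arf, lay at 0.35 and 0.48 in A and -8.45 and -7.81 in C3 (-8.54 ± 0.30 (SE, adjusted p = 3.9e-06)). Next to it, the enzyme gene Mtap fell (-6.25), as did, beyond it, the gene model Gm13285 (-3.36). Their flanking tested genes Klhl9 and Tusc1 differed by -0.07 and -0.95 and were not called. On GRCm38.p6, Mtap, Cdkn2a and Cdkn2b lie next to each other between chr4:89137370 and chr4:89311032 among the tested genes. Cdkn1a, which encodes p21, and Trp53 were not called (-0.15 and 0.70). Cdkn1c (p57) fell by 2.73. Perp, a p53 target that is also a desmosome component, lay at -2.15 and 0.04 in A and 4.86 and 5.70 in C3 (6.34 ± 0.70), and Pmaip1, Mdm2, Gadd45g and Cdk4 rose by 2.22, 1.46, 1.37 and 1.05. Without A replicate 1, Pmaip1, Mdm2 and Cdk4 were not called, at 1.40, 1.28 and 0.91. The plot of gene order shows both stretches in which neighbours changed.

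**Figure D4:**
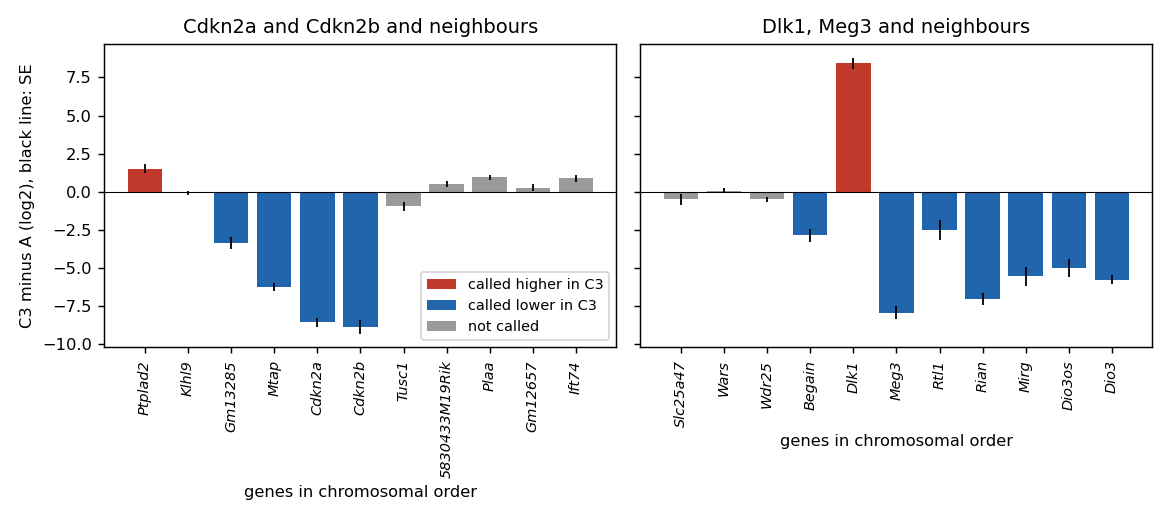
Difference between C3 and A (y axis, log2, bars with the SE as a black line) of tested genes in chromosomal order around Cdkn2b and around Meg3. From Gm13285 to Cdkn2b, 4 neighbours fell, with differences of -3.36 to -8.84, and around Meg3 only Dlk1 rose among genes that otherwise fell or were not called.

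Interferon-stimulated genes were mostly higher in C3. Of 40 tested, 37 rose and 0 fell (median 2.49), and 36 of the 40 were higher in C3 than in C2, where the median was 2.78. Oas1g, one of the enzymes that make 2-5A to activate RNase L, lay at -0.05 and -0.22 in A, 0.05 and -0.46 in C2 and 6.39 and 6.14 in C3 (6.40 ± 0.22 (SE, adjusted p = 3.8e-06)). Rsad2 (viperin) lay at -0.88 and -1.20 in A, 0.04 and -0.04 in C2 and 5.34 and 5.31 in C3 (6.36 ± 0.19). Oas3 lay at -3.74 and 0.19 in A and 6.42 and 6.41 in C3, so that its A libraries were far apart (8.19 ± 1.46 (SE, adjusted p = 0.0033)). It rose by 6.23 without A replicate 1 and 10.16 without A replicate 2. Usp18, Oas1a, Ifi44 and Oas2 rose by 5.82, 5.61, 5.31 and 5.19, Isg15, an ubiquitin-like modifier, by 3.44, and the transcription factor genes Irf7, Stat2 and Irf9 by 3.15, 2.07 and 1.31. Oas and Oas-like genes are near copies of each other, so reads may be split between them. Irf1, Ifi27l1 and Ifitm3 were not called (-0.18, -0.03 and 0.39). Without A replicate 2, 33 of the 40 were called higher.

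The promoters of 3 of these genes are shown as the 150 bases before the start, from RefSeq on build GRCm38.p6 in the direction of the gene. They were picked by the same rule as those of the cycle genes, so each holds the motif by choice. Capitals mark GAAA and GAAA separated by 2 bases of any kind, the letters of the interferon response element, on either strand. The stretches are those of Oas3 (chr5:120777660-120777809, - strand), Oas1g (chr5:120887614-120887763, - strand) and Rsad2 (chr12:26456453-26456602, - strand).
Oas3: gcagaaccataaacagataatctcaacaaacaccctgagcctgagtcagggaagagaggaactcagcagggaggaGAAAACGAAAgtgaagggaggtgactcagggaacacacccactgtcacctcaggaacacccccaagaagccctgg
Oas1g: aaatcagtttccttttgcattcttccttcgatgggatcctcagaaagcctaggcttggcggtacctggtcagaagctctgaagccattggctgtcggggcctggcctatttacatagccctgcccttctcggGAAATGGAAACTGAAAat
Rsad2: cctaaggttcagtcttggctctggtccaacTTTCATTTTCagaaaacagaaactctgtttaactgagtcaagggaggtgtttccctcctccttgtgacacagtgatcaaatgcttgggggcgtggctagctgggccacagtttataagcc
Within the window of 300 bases this pattern was found for 16 of the 29 interferon-stimulated genes with a promoter in the table (55.2%), against 3.84% of the tested genes with a promoter and 3.44% of all promoters. It was found for 2 of 30 mitosis genes and 0 of 30 replication genes. It can overlap TTTGAA where TTT stands before it.

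Of 19 genes of MHC class I and peptide loading, 12 rose and 2 fell (median 1.15). Nlrc5, the activator of class I genes, rose by 5.14 but was not called with the A and C3 libraries alone (adjusted p = 0.13), and was 2.59 without A replicate 1. B2m, the common light chain, rose by 1.29, the peptide transporter gene Tap1 by 1.37 and the trimming enzyme gene Erap1 by 1.98. H2-Q4, H2-Q6, H2-D1 and H2-K1 rose by 2.47, 2.23, 1.51 and 1.26, values that are uncertain because these genes are near copies. H2-T23 and Tap2 fell (-1.65 and -1.62). Of 11 genes of MHC class II and costimulation, 1 rose and 6 fell, or 3 with the A and C3 libraries alone. A replicate 2, the library with leukocyte transcripts, exceeded A replicate 1 at 10 of these 11, and the part of that in the falls was not tested. H2-Ab1 lay at 43.4 and 199 normalized reads in A and at the floor in C3, and Cd274, which encodes the checkpoint ligand PD-L1, rose by 4.41. Of 23 chemokines, 2 rose and 11 fell (median -2.49). The median was -3.07 without A replicate 1, with 16 falls, and -1.30 without A replicate 2. Those that rose were the interferon-induced Cxcl10, at -1.78 and 0.41 in A and 5.57 and 4.47 in C3, and Ccl5, at the floor in A and at 25.6 and 15.4 normalized reads in C3. The rise of Ccl5 was at least 2.69-fold. Cxcl14 lay at 2470.4 and 498 in A and at the floor in C3, at least 498-fold lower. The neutrophil chemokines Cxcl5, Cxcl2 and Cxcl1 fell (-5.57, -4.52 and -3.85), as did Pf4 (-5.30) and the Cxcr4 ligand Cxcl12 (-1.55).

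**Figure D5:**
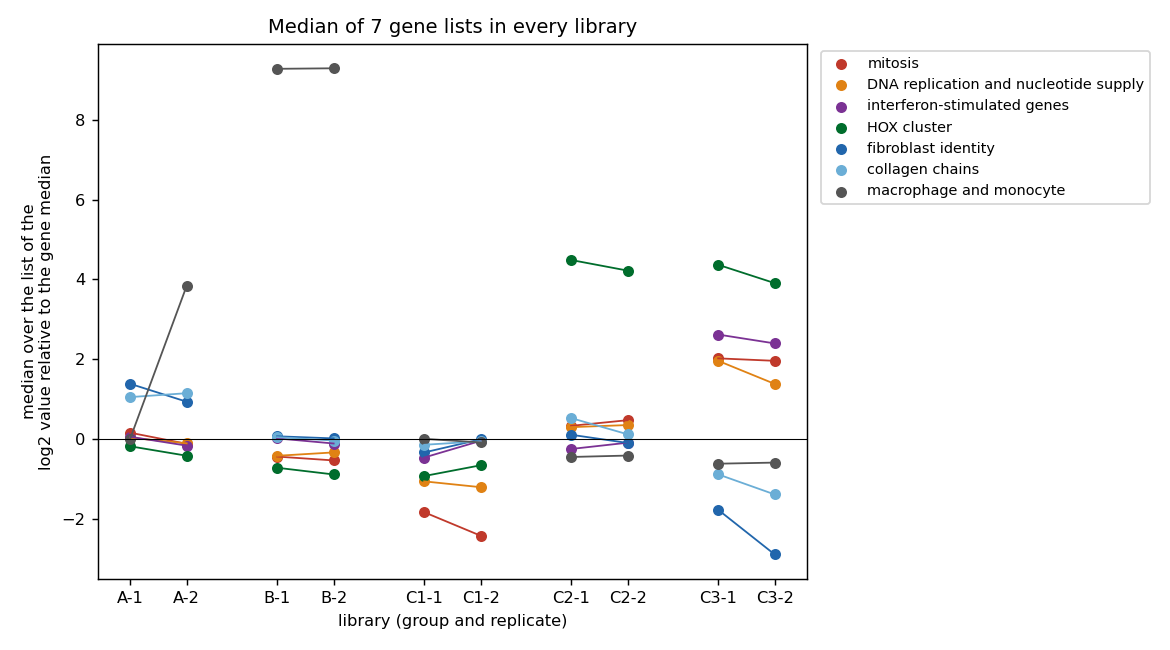
Median over the tested members of 7 gene lists of the relative log2 value (y axis) in each of the 10 libraries (x axis), with the libraries of a type joined by a line. Mitosis, replication and interferon-stimulated genes were highest in C3, HOX genes were high in C2 and C3, fibroblast and collagen genes were lowest in C3, and the macrophage list was high in B and, of the A libraries, in replicate 2.

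In retinoic acid supply and response, 1 of 16 rose and 10 fell (median -2.84). Besides Aldh1a2, the retinol carrier Rbp4 fell (-4.09), as did Aldh1a3 (-5.55), the retinoic acid induced Rarres1 and Rarres2 (-6.62 and -6.84) and the receptor gene Rarb (-2.77), while Aldh1a1 rose by 1.49. In the TGF-beta and BMP family, 1 of 35 rose and 18 fell (median -1.56). The ligands Tgfb1, Tgfb2 and Tgfb3 fell (-2.02, -1.33 and -2.33), as did Inhbb and Gdf15 (-6.18 and -6.03), the receptor Tgfbr2 (-1.56) and the inhibitor Fstl3 (-8.05). Without A replicate 1, Tgfb2 was not called, at -0.93, and 3 members of the list rose. Nog, which encodes the BMP inhibitor noggin, lay at 1 and 5.75 normalized reads in A, 1 and 1 in C2 and 67.4 and 61.9 in C3, at least 10.8-fold higher than in A.

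In the Wnt list 5 of 31 rose and 14 fell (median -1.10), where 14.4% of all tested genes rose and 19.9% fell. The ligand genes Wnt7a, Wnt16, Wnt9a and Wnt4 rose by 6.42, 4.39, 2.79 and 1.75, and the receptor gene Fzd6 by 2.28. Wnt7a was at the floor in both A libraries and at 36.2 and 202 normalized reads in C3, at least 6.3-fold higher. Wnt16 lay within the limit of A, and its rise was at least 2.71-fold. The ligand Wnt11, the receptor genes Fzd1 and Ror2 and the secreted inhibitors Dkk3, Dkk2 and Sfrp1 fell (-5.35, -3.64, -3.35, -6.98, -4.16 and -2.85). Axin2, a common target of the pathway, was not called (0.25). Of 32 receptor tyrosine kinases and their ligands, 4 rose and 10 fell (median 0.08), and without A replicate 2 there were 8 that rose. The 4 rises were near the share over all tested genes (14.4%). In the Notch list 0 of 16 rose and 8 fell. The receptors Notch1, Notch3 and Notch4 fell (-4.01, -6.45 and -7.12), as did the ligand Jag1 (-2.35) and the targets Hes1, Hey1 and Heyl (-2.22, -4.81 and -8.30), while Notch2 and Rbpj were not called (-0.14 and -0.19). Jag1 differed by -1.36 without A replicate 1, and without A replicate 2 Jag2 and Lfng were called higher, at 3.01 and 1.44. Among 14 genes of angiotensin and natriuretic peptides, 2 rose and 6 fell. Ace lay at 4.03 and 4.63 in A and -8.49 and -8.02 in C3, and the precursor gene Agt, the angiotensin receptor gene Agtr1a (-4.30) and the endothelin receptor gene Ednra (-5.44) fell.

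Of 25 integrins and cadherins, 5 rose and 13 fell. Those that rose were Itgb7 (6.17), Itga3 (5.13), Itga6 (1.51), Cdh1 and Cdh3, of which Itga3 and Itga6 encode laminin receptors. Itga6 lost its call without A replicate 1, at 0.95. Itga9, Cdh13, Itga4, Itga11 and Itga8 fell (-6.53, -6.39, -6.33, -5.86 and -5.65), as did Cdh11 (-2.25) and the N-cadherin gene Cdh2 (-1.17). Itgb1, the common partner chain, and Itgav were not called (0.07 and 0.30). Of 23 surface markers used for stem and progenitor cells, 4 rose and 11 fell. The share that rose was near that over all tested genes (14.4%). Cd200 lay at 1753 and 145 normalized reads in A and at the floor in C3, at least 145-fold lower, and Alcam, Nes, Ly6a (Sca-1) and Cxcr4 fell (-5.30, -5.17, -4.83 and -4.57). Cd24a, Abcg2 and Kitl, the ligand of c-kit, rose by 3.78, 1.99 and 1.75, and Cd44 was not called (0.97). Cd24a differed by 2.30 without A replicate 1.

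Imprinted genes, of which 1 parental copy is silent, moved in both directions. Of 27 tested, 4 rose and 15 fell (median -1.52), where 14.4% of all tested genes rose and 19.9% fell. At the Dlk1 and Meg3 locus on chromosome 12, Dlk1, expressed from the paternal copy, lay at -4.49 and -3.55 in A, 8.76 and 8.31 in C2 and 4.73 and 4.10 in C3 (8.43 ± 0.36 (SE, adjusted p = 8.8e-06)). Meg3, a noncoding RNA expressed from the maternal copy, lay at -0.32 and 1.14 in A and -7.32 and -7.72 in C3 (-7.93 ± 0.44 (SE, adjusted p = 2.6e-05)). The maternal noncoding RNAs Rian and Mirg fell (-7.03 and -5.55), and Dio3, at the other end of the locus, lay at 60.5 and 47.9 normalized reads in A and at the floor in C3. Rtl1, which has an antisense partner, fell by 2.50, and was not called without A replicate 2, at -1.75. Elsewhere Ndn, Grb10 and H19 fell (-6.30, -4.92 and -2.76), and Peg3 and its neighbour Usp29 rose by 3.30 and 3.19. Usp29 lay within the limit of A, and its rise was at least 2.71-fold. Igf2, next to H19, lay at -4.77 and -0.22 in A and was not called (2.44 ± 1.27). Among 29 genes of DNA methylation and Polycomb, 6 rose and 6 fell (median -0.04), shares near those over all tested genes (14.4% and 19.9%). There were rises in the Polycomb genes Ezh2 (2.93), Phf19 (2.51), Suz12 (1.60) and Eed (1.17) and in the maintenance methylation genes Dnmt1 (1.44) and Uhrf1 (1.35), and falls in Dnmt3l (-5.54), Tet1 (-1.60) and Ezh1 (-1.10) among others. Tet1 was not called without A replicate 1, at -1.08. With quantile normalization 1 of these 29 genes was called lower.

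Some of the calls above also ended when 1 of the C3 libraries was left out. Without C3 replicate 1, the genes named above that were no longer called, besides Kit and Xist, were Aldh1a1 (1.31), Ccnb2 (0.81), Cdh1 (4.32), Cdk4 (0.98), Emr1 (-4.70), Ezh1 (-0.98), Foxf1 (1.44), Irx5 (1.20), Itga6 (1.61), Nlrc5 (5.46), Ovol1 (-1.10), Rtl1 (-2.50), Tet1 (-1.48), Tnnt2 (4.76) and Uhrf1 (0.88). Without C3 replicate 2 they were C1qb (-5.20), Dsp (3.59), Emr1 (-3.89), Foxf1 (1.59), Itga6 (1.41), Jag1 (-2.16), Mdm2 (0.83), Nlrc5 (4.82), Pmaip1 (1.46), Rarb (-2.05), Rtl1 (-2.50), Tagln (-1.47), Tet1 (-1.72), Tgfb2 (-1.04) and Tnnt2 (4.34). Each of these genes kept its direction. Without C3 replicate 2, 10 of the 33 CDK inhibitors and p53 targets fell and 3 rose, and 2 of the 11 cardiomyocyte genes and 3 of the 29 genes of DNA methylation and Polycomb fell. Without C3 replicate 1, 3 of the 25 integrins and cadherins rose. With the A and C3 libraries alone, 2 of the 23 stem and progenitor markers, 2 of the 27 imprinted genes and 3 of the 33 CDK inhibitors and p53 targets rose, and 3 of the 29 genes of DNA methylation and Polycomb fell.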

How the data were processed

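RNA of 10 libraries, 2 per cell type, was prepared with the Illumina TruSeq kit v2, per the labels' protocols. TopHat, DESeq and build mm10 are named in the submitters' processing notes, with no version or role. The deposited table holds log2 values of 36172 genes, from which each gene's median over the 10 libraries had been taken away (0 within 1e-05 for all 17821 genes with values). Of the rest, 18334 were 0 in every library and 17 were left out because a cell held a date. The authors' normalization is not stated in labels or headers. A floor of 1 normalized read and the value of 1 read per library were inferred from repeated and evenly spaced low values, of which 33.1% to 70.5% per library were whole reads within 0.01, so no count test was run and depth is known only as a ratio.

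Genes with a known level (4763) needed at least 10 normalized reads in 2 libraries, which removed 3568. The other 13058 were all tested. limma 3.58.1 (R 4.3.3) took the deposited log2 values from the 10 libraries together, 1 mean for each cell type, 5 residual and 1.93 prior degrees of freedom, and Benjamini-Hochberg adjustment over 14253 genes per comparison, two-sided. Calls needed an adjusted p under 0.05 and a difference of at least 1. The method was run on simulated normal values with 1 spread per gene for all types and no floor. That run does not cover the wider gap between the A libraries or the difference in depth. Differences carry the SE of the fit, with 2 libraries a type and 1 spread per gene shared over all types. The A libraries stood 1.06 apart and those of the other types 0.43 to 0.52. The SE and p-values can therefore be too small for genes at which the A libraries differ. Named are the 12 genes with the largest called change in each direction and genes of the sort and sex. Per list, mostly up to 6 called members in each direction are named, with uncalled or defining members. Up to 4 with the largest gap between the A libraries or between C3 and C2 are added. Some lists, such as the interferon, mitosis and heart factor lists, name more called members. Values of some genes are not reported here. The comparison and the lists were chosen with earlier results of these data known. Some genes belong to several lists, such as Col1a1 to the collagen and fibroblast lists, so the counts of lists are not independent. Scaling, filter, weights, sample choice, replicate block and each library left out were varied. Coordinates and promoters are RefSeq's, GRCm38.p6, matched by Entrez gene ID.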

Additional observations from a re-analysis of the deposited data

How the results depend on the processing

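Counts of called genes stayed within 1.5 times of 2051 higher and 2841 lower under every setting run but one, a minimum difference of 2, which left 700 higher and 1635 lower. Leaving out 1 library gave 1814 to 2258 higher and 2448 to 3234 lower, and for C3 against C2 1399 to 1555 higher and 1849 to 2055 lower. The fit on the A and C3 libraries alone gave 1709 and 2240, array weights 1874 and 2570, no filter 2163 and 3013, and raising known levels to the limit of A 2033 and 2669. Of the 24 genes with the largest changes, 24 kept their call in each of 14 settings. They were picked for the largest called differences of the main fit, so this says little about other genes. Of the 310 genes named in the text, 310 stayed on their side of the threshold with equal library medians, 297 with quantile normalization and 288 to 298 with 1 library left out. With known levels raised to the limit of A, 303 stayed, 6 lost their call and 1 gained it. With the A and C3 libraries alone 34 lost their call, namely Aldh1a1, C1qb, Cd24a, Col2a1, Emr1, Fosl1, Foxf1, Foxf2, H2-D1, Hoxb3, Igfbp5, Itga6, Jag1, Kit, Krt19, Mdm2, Nlrc5, Phf19, Plaur, Pmaip1, Ptprc, Rtl1, Sema3c, Sfrp1, Synpo2, Tet1, Tgfb1, Tgfb2, Tnnt2, Uhrf1, Usp29, Vegfa, Vwf and Xist. Each kept its direction. Of 106 counts over the 53 lists, 31 moved by over 1.5 times at a minimum difference of 2, 22 with the A and C3 libraries alone and 14 with quantile normalization. The labels do not say whether the replicate numbers pair samples. The gap between replicates 1 and 2 in A and in C3 correlated over genes at 0.0892, which cannot settle it. With the replicate number as a block 2057 genes were higher and 2843 lower (1653 and 2283 against C2). The shallow A libraries and 2 libraries a type limit what can be called, most of all for genes near the limit of A.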

Other observations

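Genes that cells switch on within minutes of a stimulus, among them those of the FOS, JUN, EGR and NR4A families, were mostly lower in C3. Of 23 tested, 1 rose and 14 fell, with a median of -1.53, and against C2 2 of the 23 were higher in C3 and 9 lower. Egr1 lay at 0.52 and 0.44 in A and -1.72 and -2.21 in C3 (-2.44 ± 0.26), Nr4a1 differed by -3.73 ± 0.37, and Fos fell (-2.50), as did Egr2 (-4.35) and Klf2 (-4.19). The gene that rose was Fosl1, by 2.56, and Myc, Klf4 and Ier3 were not called (0.84, 0.57 and 0.24). Of 21 complement genes, 1 rose and 11 fell, and without A replicate 2, which exceeded A replicate 1 at 14 of the 21, there were 3 that rose. The inhibitor Serping1 fell (-9.06), as did Cd59a (-6.72), while the complement gene C2 rose by 4.92.

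Few genes of the respiratory chain were called. Of 39 tested, 2 rose and 0 fell (median 0.20), namely Cycs, which encodes cytochrome c (2.20), and Ndufa4 (1.57). Of 32 glycolysis and hypoxia genes 3 rose and 9 fell (median -0.52), and 4 fell without C3 replicate 1 and 5 with the A and C3 libraries alone. Adm (adrenomedullin), Ddit4 and Vegfa fell (-7.30, -3.41 and -1.46), with no call for Vegfa without A replicate 2 (-0.79), and Hk2 and Gapdh rose by 1.51 and 1.18. Among 21 targets and members of the Hippo pathway 4 rose and 1 fell, or 2 without C3 replicate 1. Tead4, a DNA-binding partner of YAP, lay at -1.87 and -0.66 in A and 4.18 and 4.38 in C3 (5.54 ± 0.58), while Yap1, Ctgf and Cyr61 were not called (-0.02, 0.34 and 0.57). Of 35 axon guidance genes 4 rose and 16 fell. Robo1 fell (-8.03), as did Slit3 (-3.29), while the semaphorin genes Sema3e, Sema3a and Sema3c rose by 3.97, 3.25 and 3.19. Without A replicate 2 the difference of Sema3c was 1.72, and 8 axon guidance genes rose in place of 4. Without C3 replicate 1, Vegfa and Sema3c were not called (-1.20 and 3.10), and without C3 replicate 2 neither were Sema3c and Fos (3.27 and -2.10).

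The medians over the genes of single chromosomes were not all alike. The median difference between C3 and A was 0.467 over 713 tested genes of chromosome 6, of which 30.2% were called higher, and 0.432 over 501 genes of chromosome 19, of which 27.1% were called higher. It was 0.265 for chromosome 10 and -0.288 for chromosome 7, and for each other autosome it lay between -0.169 and 0.0789. The median of C2 minus A was 0.506 on chromosome 6, 0.51 on chromosome 19 and 0.398 on chromosome 10, and that of C3 minus C2 was -0.0221, -0.025 and -0.117. On chromosome 4 the median of C2 minus A was -0.598 and that of C3 minus A -0.0569. The comparisons with A share its libraries, and what lies behind these values was not tested.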
